A study of Mus musculus with 32 samples.

Results

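Alternative 3′ splice site bins were examined in mouse P19 cells depleted of single SR proteins. An exon bin is a stretch of annotated exon that no transcript boundary divides, and its value is the number of reads that overlap it. A member was the upstream bin, on the strand of the gene, of a pair of touching bins that lie inside a gene with no further bin attached, where the upstream bin was listed in fewer transcripts than the downstream bin. The member is thus sequence at the 5′ side of an exon block that fewer of the gene's transcripts hold than hold the rest of the block. This rule uses the annotation and no read. It found 10924 members among 354841 bins, in 6412 of 37223 gene models, out of 23234 internal blocks of 2 bins, of which 12297 held an alternative 5′ bin and 13 had equal lists. Of the gene models with members, 2611 had more than 1, up to 14, and 819 members lay in merged models of overlapping genes, so that members of 1 gene are not independent of each other.

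P19 is an embryonal carcinoma line that resembles early embryonic cells. SRSF1, SRSF2, SRSF3, SRSF4, SRSF5, SRSF6 or SRSF7 was knocked down for 36 h with esiRNA, which is a mix of small interfering RNAs made by digesting a long double-stranded RNA of the target, and control cells received esiRNA against GFP, which they do not carry. Poly(A)+ RNA was sequenced from whole cells and from the cytoplasm, with 2 replicates, A and B, of each of the 8 treatments in each fraction, 32 libraries in all. The question for the members was whether the share of transcripts that use the upstream boundary moved when an SR protein was depleted, and whether it differed between the fractions.

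A 3′ splice site is the end of an intron. It is marked by the bases AG, which follow a stretch rich in pyrimidines (C and T) and a branch point. The U2AF dimer reads the pyrimidine stretch and the AG, and the second step of splicing joins the upstream exon to the base after the AG. SR proteins bind exonic enhancers through their RNA recognition motifs and help U2AF and U1 to hold nearby sites, so that exon sequence can tip the choice between 2 competing AGs. Pairs of AGs 3 bases apart (NAGNAG sites) are a common form of this choice, which adds or removes 1 amino acid where the bin is coding.

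The libraries held 38874542 to 59470730 bin reads in whole cells (median 44557181.5) and 41417374 to 72741730 in the cytoplasm (median 53382957.5). *Pou5f1*, a pluripotency factor that marks these cells, had 836 to 1327 RPM (reads scaled to library size) in whole cells and 1977 to 3397 in the cytoplasm, lowest with SRSF3 knockdown in each fraction and replicate. The bins of the targeted gene kept 48.0% to 67.6% of their control reads in whole cells, where both knockdown libraries were below both controls for 7 of 7 genes, and 37.4% to 75.9% in the cytoplasm, where this held for 6 of 7. The exception was *Srsf2* in the cytoplasm. The 2 replicates of SRSF3 knockdown were uneven. In whole cells *Srsf3* had 9865 (A) and 6071 (B) reads, scaled between libraries, against 11781 and 11797 in the control. In the cytoplasm it had 8463 and 4749 against 10981 and 9822. The depletions were thus partial at the RNA level.

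By the transcript lists, the name alternative 3′ splice site fits 2346 of the 10924 members (21.5%), in which a transcript using the upstream boundary and another using only the downstream boundary both come from an earlier exon. These are called spliced at both sites here. In 4129 members (37.8%) the transcript with the longer form has its annotated start in the upstream bin, in 3616 (33.1%) the shorter form starts in the downstream bin, and in 833 (7.63%) both forms start in the block. Members spliced at both sites were short. Their median length was 21 bases, against 65 for all members, and 440 of them (18.8%) were 3 bases long, 752 (32.1%) were another multiple of 3 and 1154 (49.2%) were not a multiple of 3.

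The genome sequence at the boundaries differed between these classes. Of the members, 10154 (93.0%) could be matched by transcript and exon length to the mm9 genome (NCBIM37). AG preceded both boundaries in 92.4% of 2127 matched members spliced at both sites, at 95.0% for the upstream and 96.9% for the downstream boundary. Where the longer form begins in the bin, AG preceded the upstream boundary in 5.70% of 3927 and the downstream boundary in 99.5%, and where the shorter form begins there the shares were 99.7% and 8.60% of 3326. The 20 bases before the AG held a median of 70% pyrimidines at both boundaries of members spliced at both sites, and 50% against 75% where the longer form begins in the bin. Coding sequence covered 75.3% of members spliced at both sites, 85.9% of those whose shorter form begins there and 3.64% of those whose longer form begins there, of which 3224 belong to transcripts with no coding sequence.

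**Figure D1:**
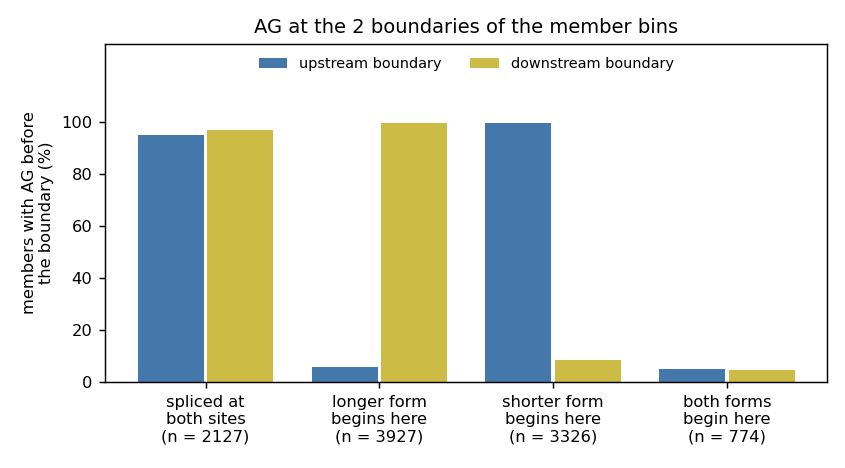
Share of members (vertical axis, %) with the bases AG just before the upstream (blue) and downstream (yellow) boundary, in the 4 classes made from the transcript lists; n is the number matched to the genome. Both bars are above 90% only in the class spliced at both sites, at 95.0% and 96.9%.

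The 4 members of 3 bases with the most reads show the NAGNAG form. Each run below is 28 bases of the transcribed strand, read 5′ to 3′ from NCBIM37, with the 3 bases that only the longer form includes in capitals.
Ssb, chr2:69708715-69708742, plus strand: tctaagtcatgtttttacagCAGgtgga
Gspt1, chr16:11239185-11239212, minus strand: attaacatacctttctttagTAGaaaat
Mrpl55, chr11:59017654-59017681, plus strand: ttgttgtttcccttgcctagCAGggcct
Lig1, chr7:13871887-13871914, plus strand: ttctttctgtctcctttcagAAGcctgt
The capitals end in AG in each, directly after another AG, so that the first AG gives the longer and the second the shorter form. *Ssb* encodes the La protein that binds new RNA polymerase III transcripts, *Gspt1* a translation termination factor, *Lig1* DNA ligase I and *Mrpl55* a protein of the mitochondrial ribosome. The 3 bases were coding in all of them but *Mrpl55*, where they lie in the 5′ UTR.

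*Vegfb*, which encodes a growth factor of the VEGF family, was the one member spliced at both sites that both tests called in both fractions, and the windows around its 2 sites are shown for that reason. It was picked for display after its values were seen. The capitals mark the 2 bases before each boundary.
Vegfb upstream site, chr19:7060080-7060107, minus strand: acgtgtcgcttctcctcctAGggttgcc
Vegfb downstream site, chr19:7059979-7060006, minus strand: acatcatccatcccactccAGccccagg
Both windows hold AG at the boundary, and the bin between them is 101 bases of coding sequence, not a multiple of 3.

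For *Gpi1*, *Vdac2*, *Dazap1* and *Foxk2*, the longer form begins in the bin, and these windows are shown because they are among the members with the largest changes. Capitals again mark the 2 bases before the boundary.
Gpi1 upstream boundary, chr7:34995390-34995417, minus strand: cagggacctggggatctgcAGcccccta
Gpi1 downstream site, chr7:34993323-34993350, minus strand: tgccctttccttctctcctAGtgggtag
Vdac2 upstream boundary, chr14:22661476-22661503, plus strand: ttaccagtcagtggtgcatCTgtgactg
Vdac2 downstream site, chr14:22663083-22663110, plus strand: tgtttttttctctctttctAGgcaaagg
Dazap1 upstream boundary, chr10:79745591-79745618, plus strand: gaaattaaagagcaaacatTTttttttt
Dazap1 downstream site, chr10:79745748-79745775, plus strand: aagtgcactcggtttgtttAGgtggagg
Foxk2 upstream boundary, chr11:121159809-121159836, plus strand: gtgtggaaactgtaagattAAggagccg
Foxk2 downstream site, chr11:121159852-121159879, plus strand: gctcatgttgtctcccaacAGggtcacc
AG stood at the downstream site in all 4 genes and at the upstream boundary in *Gpi1* alone. Upstream of the site the annotation places the start of a transcript inside what is an intron for other transcripts. Reads of that intron, left unspliced, and reads of a transcript that begins in it cannot be told apart in such a bin.

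The level of use of a member was set as the reads per available position in the upstream bin over those in the downstream bin, in percent, for reads of 75 bases, which can overlap a bin from 74 positions before it. It can pass 100%, because the coverage of 2 bins differs for other reasons too. In the control whole cell libraries 5777 members had at least 20 scaled reads in the downstream bin. Members spliced at both sites spread over the whole range, with a median of 51.1% (quartiles 8.92% and 93.5%, n = 1218). Of these, 26.2% were under 10%, 26.4% over 90% and 47.4% between. Where the longer form begins in the bin the median was 1.25% (quartiles 0.186% and 4.13%, n = 2533), and where the shorter form begins there it was 94.0% (quartiles 66.9% and 123%, n = 1946). The 2 control replicates differed by a median of 6.22 percentage points in members spliced at both sites.

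The cytoplasm gave the same order of classes. The median was 51.2% for members spliced at both sites (n = 982), 0% where the longer form begins in the bin (n = 2092) and 89.6% where the shorter form begins there (n = 1448). Over all members the median was 18.9% in whole cells and 3.15% in the cytoplasm, and it rose to 23.5% and 5.08% when reads were divided by the bin length alone.

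**Figure D2:**
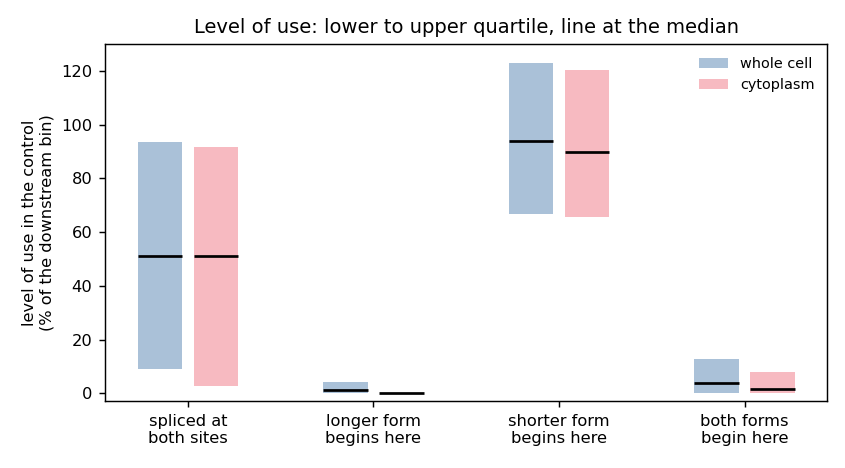
Level of use in the GFP control (vertical axis, reads per position of the upstream bin in % of the downstream bin), mean of 2 replicates, for the 4 classes in whole cells (blue) and cytoplasm (pink); bars run from the lower to the upper quartile over members and the line is the median. The members spliced at both sites have medians of 51.1% and 51.2%, while those whose longer form begins in the bin lie near 0.

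Members of 3 bases showed the letter before AG at each site. Of 380 with AG at both sites, the upstream site was CAG in 223 (58.7%), TAG in 97 (25.5%), AAG in 53 (13.9%) and GAG in 7 (1.84%). At the downstream site the counts were 276 for CAG (72.6%), 50 for AAG, 38 for TAG and 16 for GAG (4.21%). The median level of use in control whole cells was 49.9% with CAG at both sites (n = 89), 53.3% for TAG then CAG (n = 35) and 32.2% for AAG then CAG (n = 19). It was 54.9% for CAG then AAG (n = 11), 96.6% for CAG then TAG (n = 11) and 99.6% for CAG then GAG (n = 7). With TAG at both sites it was 32.05% (n = 9), with AAG at both 65.1% (n = 5) and for TAG then AAG 116% (n = 5). In the cytoplasm, over a set of members that is not the same, CAG then TAG stood at 26.6% (n = 10). Its quartiles were 15.1% and 101% there, and 24.3% and 123% in whole cells. CAG at both sites stood at 50.9% in the cytoplasm (n = 76). These medians were not tested, and the ranges within each pair of letters overlapped; CAG at both sites ran from 0.878% to 308%.

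The printed members gave per-library examples. *Ssb* stood at 38.3% and 31.3% in control whole cells and at 38.6% and 27.04% in the cytoplasm. *Gspt1*, with TAG as its extra bases, stood at 77.3% and 74.7%, and at 81.0% and 57.4%. *Mrpl55* stood at 29.7% and 22.8%, and at 31.2% and 25.1%, and *Lig1* at 35.4% and 36.9%, and at 32.5% and 39.4%. The fractions overlapped in *Ssb*, *Gspt1*, *Mrpl55* and *Lig1* alike. Over the 207 members of 3 bases measured in every whole cell group the median lay between 46.5% and 54.1% in the 16 libraries, with 50.2% and 47.7% in the control, and over 147 members in the cytoplasm it lay between 43.3% and 51.9%, with 49.1% and 46.7% in the control. In neither fraction and with neither test was a member of 3 bases called in any of the 14 comparisons of a knockdown with its control, among 146 to 219 tested; at an unadjusted p below 0.05 the share was 0% to 3.74% by limma's diffSplice and 1.38% to 8.55% by limma on the block ratio.

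Between the fractions of control cells, 40 of 100 members whose longer form begins in the bin and that were read in both fractions were called lower in the cytoplasm, and 2 were called higher. In poly(A)+ RNA of the 2 fractions, fewer molecules of 1 form and more of the other cannot be told apart in a ratio. The block ratio, which is the log2 ratio of the upstream to the downstream bin, was compared between 2 cytoplasmic and 2 whole cell control libraries with limma at an adjusted p below 0.1. Of 3901 members tested, 549 were called, 29 higher and 520 lower in the cytoplasm. Among all 9256 blocks tested 14.6% were called, 7.23% higher and 7.32% lower. In blocks with an alternative 5′ bin the upstream bin is the shared one, so that the sign is turned. These gave 640 higher and 158 lower of 5352, and the shares by direction are not a like background for the members. By class, 447 of 605 members whose longer form begins in the bin were called lower and 7 higher, with a median change of -3.06. Among members spliced at both sites 44 of 948 were lower and 6 higher, with a median of -0.02, and among those whose shorter form begins there 28 of 2319 were lower and 16 higher, with a median of -0.03.

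The minimum level shaped that count. Of the 605, only 100 passed the minimum of 5 scaled reads in both fractions, the 100 named first above, with a median of -0.60. The 498 that passed through the whole cell alone were chosen by their higher whole cell reads and held 407 of the lower calls, and 176 of the 605 had no read in either cytoplasmic control library. With those set to the bound that 3 reads over the group give, the median was -2.81. Without whole cell control A or without whole cell control B no member was called by limma, with 392 lower and 56 higher, or 416 lower and 46 higher, at an unadjusted p below 0.05, while the medians of the class stayed at -3.01 and -3.26. Without cytoplasmic control A 736 members were called, and without B 758.

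The members with the largest called changes, 5 of which are described here, had a longer form that begins in the bin and a transcript without coding sequence. *Gpi1* (ENSMUSG00000036427), which encodes the glycolytic enzyme glucose-6-phosphate isomerase, has a member of 2067 bases at chr7:34208311-34210377 (mm10, minus strand). Its upstream bin had 503 and 834 scaled reads in whole cells and 7.92 and 5.92 in the cytoplasm, while its downstream bin had 333 and 408, and 610 and 1089. The change of the ratio was -7.51 (SE 0.38, adjusted p = 0.000405). *Vdac2*, a channel of the outer mitochondrial membrane, had 154 and 121 scaled reads against 4.52 and 2.96 in a bin of 1607 bases at chr14:21842275-21843881 (plus strand). Both bins kept a few reads in the cytoplasm, and the groups did not overlap, which a pick by the largest called changes favours. *Gpi1* passed the minimum in both fractions, while *Vdac2* and the members that follow passed it through the whole cell alone, so that they had to differ, and for these only the values are given.

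*Myl12b*, *Btf3* and *Fxr2* had 0 to 2 reads in each cytoplasmic library. *Myl12b*, a myosin regulatory light chain, had 52 and 48 reads in whole cells and 0 and 2 in the cytoplasm. *Btf3*, part of the nascent polypeptide-associated complex, had 35 and 36 reads, and 0 and 1. *Fxr2*, an RNA-binding protein of the fragile X family, had 40 and 42 reads in whole cells and 0 in both cytoplasmic libraries. The downstream bins of these 3 genes were read in the cytoplasm, from 1314 scaled reads in *Fxr2* to 7236 in *Btf3*.

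**Figure D3:**
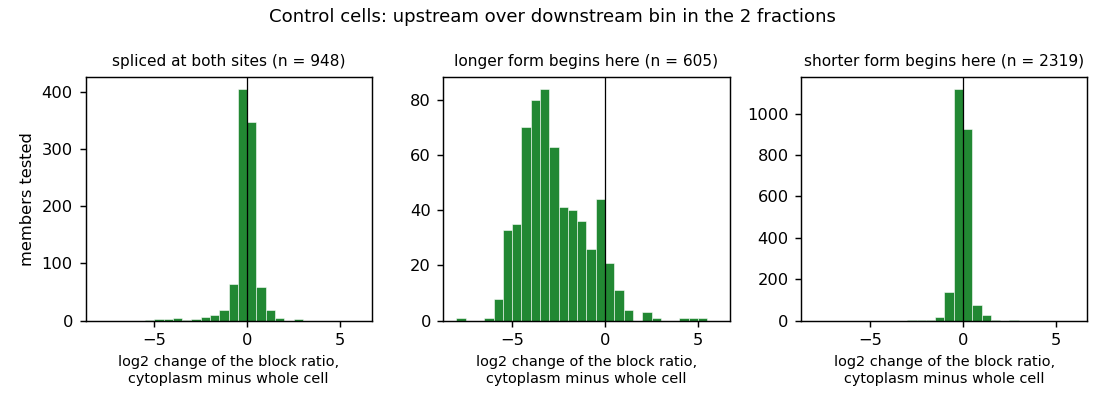
Change of the block ratio from whole cell to cytoplasm in GFP control cells (horizontal axis, log2, 2 libraries in each fraction) and number of members tested (vertical axis, scale set in each panel). Members spliced at both sites and those whose shorter form begins in the bin centre near 0, with medians of -0.02 and -0.03, and those whose longer form begins there have a median of -3.06, or -0.60 over the 100 of the 605 that passed the minimum in both fractions.

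Each knockdown was compared with the GFP control of its fraction by 2 tests. Bin usage (limma's diffSplice) sets a bin against the other bins of its gene, and the block ratio sets it against its downstream neighbour, both with an adjusted p below 0.1 over all bins or blocks tested. Bins needed a mean of 5 scaled reads, which left 4475 to 4620 members in whole cells and 2855 to 3056 in the cytoplasm for bin usage, and 4395 to 4546 and 2742 to 2939 for the block ratio. The mean was taken over control and knockdown together. A bin low in the control could thus pass through the knockdown alone, and it could then only be called higher. Replicates A and B of a group differed by a median of 0.134 to 0.157 in the log2 ratio over 2762 members in whole cells. In the cytoplasm this was 0.129 to 0.145 over 1767 members, apart from SRSF2 knockdown with 0.205. Those 2762 and 1767 members had a mean of at least 20 reads in both bins. The spread of the tested members with fewer reads is therefore not covered.

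Members were called mainly with SRSF1 and SRSF3 knockdown. In whole cells, bin usage called 27 members with SRSF1 knockdown (23 higher, 4 lower) where 0.322% of all bins were called, 0.226% higher and 0.0955% lower. It called 26 with SRSF3 knockdown (16 higher, 10 lower) against 0.394% of all bins, 0.193% higher and 0.201% lower. With SRSF2 knockdown 5 members were called, all higher, against 0.112% of bins, and with SRSF7 knockdown 3, all lower, against 0.0725%. Of the members tested the shares were 0.599%, 0.572%, 0.112% and 0.0656%, so that the shares for SRSF2 and SRSF7 were close to those of all bins.

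The remaining whole cell comparisons gave no member by bin usage. With SRSF4 and SRSF5 knockdown 0% of all bins were called and with SRSF6 knockdown 0.00328%. At an unadjusted p below 0.05 diffSplice gave 63 higher and 39 lower members for SRSF4, 44 and 70 for SRSF5, and 74 and 92 for SRSF6, and edgeR called 0 in each.

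In the cytoplasm bin usage called 3 members with SRSF1 knockdown (2 higher, 1 lower) against 0.183% of bins, 4 with SRSF3 (1 higher, 3 lower) against 0.499% and 1 with SRSF6, lower, against 0.00666%. It called none with SRSF2, SRSF4, SRSF5 or SRSF7 knockdown, where 0.0139%, 0.00207%, 0.00338% and 0.0518% of bins were called. The unadjusted counts of diffSplice were 30 higher and 55 lower, 36 and 30, 40 and 21, and 25 and 48 in that order, and edgeR called 0 in each.

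The block ratio called 19 members with SRSF1 knockdown in whole cells (17 higher, 2 lower) against 0.684% of all blocks, 0.193% higher and 0.491% lower. With SRSF3 knockdown it called 14 (13 higher, 1 lower) against 0.449%, 0.248% higher and 0.2% lower. In the cytoplasm it called 4 with SRSF1, all higher, against 0.169% of blocks and 4 with SRSF3, all lower, against 0.397%. Of the members tested the shares were 0.429%, 0.314%, 0.140% and 0.136%, each below the share of all blocks. In the higher direction alone the shares of members in whole cells were 0.384% with SRSF1 and 0.291% with SRSF3 knockdown. Members gave 17 of the 20 higher calls among all blocks with SRSF1 and 13 of the 26 with SRSF3 knockdown. In blocks with an alternative 5′ bin the sign is turned, so the shares of all blocks by direction are not a like background.

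In the other comparisons the block ratio called no member by limma, and no other tool was run on it. With all 16 libraries of the fraction in the fit, it called 4 for SRSF2 and 1 for SRSF7 in whole cells. The share of all blocks called was 0% for SRSF2, SRSF4, SRSF5, SRSF6 and SRSF7 in whole cells and for SRSF4, SRSF5 and SRSF6 in the cytoplasm, 0.0293% for SRSF2 and 0.0287% for SRSF7 in the cytoplasm. Unadjusted p below 0.05 was reached by 162 members higher and 79 lower for SRSF2 in whole cells, 94 and 63 for SRSF4, 68 and 100 for SRSF5, 85 and 100 for SRSF6, and 118 and 102 for SRSF7. In the cytoplasm the counts were 51 and 50 for SRSF2, 67 and 78 for SRSF4, 83 and 70 for SRSF5, 61 and 66 for SRSF6, and 46 and 70 for SRSF7.

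Most of the calls lay in members whose longer form begins in the bin. In whole cells the block ratio called 16 of 974 such members higher and 1 lower with SRSF1 knockdown, with a median change of 0.13, and 13 of 1000 higher and none lower with SRSF3 knockdown, with a median of 0.03. Those 13 include *Foxk2*, *Vars2* and *Pdcd6ip*, which passed the minimum through the knockdown alone and could only be called higher. Members spliced at both sites gave 1 higher and 1 lower of 1032, and 0 higher and 1 lower of 1036. Those whose shorter form begins in the bin gave no call among 2390 and 2395. The counts depended on having all 4 libraries. Leaving out any 1 of the 4 libraries left 0 or 1 member called by the block ratio for SRSF1 and for SRSF3 in whole cells. The changes themselves moved less, by a median of 0.10 and at most 0.50 in the log2 ratio over 24 named calls. For bin usage, SRSF1 gave 15 without control A, 11 without control B, 6 without knockdown A and 19 without knockdown B, and SRSF3 gave 5, 6, 6 and 47 in the same order.

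Both tests together called 26 members in all comparisons, 22 higher and 4 lower. Of these, 21 were members whose longer form begins in the bin and 5 were spliced at both sites. The higher calls include *Foxk2*, *Vars2* and *Pdcd6ip* with SRSF3 knockdown, whose control mean of 2.46 scaled reads was under the minimum of 5. They passed the minimum through the knockdown alone and could only be called higher. SRSF1 knockdown gave 14 of the 26 in whole cells and 2 in the cytoplasm, and SRSF3 knockdown gave 8 and 2. These were 0.316% and 0.0700% of the members tested by both with SRSF1, and 0.179% and 0.0681% with SRSF3. Over all internal blocks of 2 bins, by their upstream bin, the shares were 0.144% and 0.0282% with SRSF1, and 0.0764% and 0.0274% with SRSF3. The members themselves make up nearly all of those calls, since in the other blocks the upstream bin is the shared one. No member was called by both tests in 3 or more comparisons. A pick by these tests favours groups that do not overlap, so a lack of overlap in the called members named below adds no evidence of a change.

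With SRSF1 knockdown in whole cells, 13 of the 14 members called by both tests were higher, that is, had more upstream reads for the downstream reads. *Dazap1* (ENSMUSG00000069565), which encodes an RNA-binding protein of the hnRNP type, has a member of 157 bases at chr10:80282867-80283023 (mm10, plus strand), shown above. Its upstream bin had 16.4 and 18.6 scaled reads in the control and 86.7 and 91.6 with knockdown, while the downstream bin had 481 and 582, then 335 and 369. The level of use went from 3.36% and 3.15% to 25.6% and 24.5%, a change of 2.88 in the log2 ratio (SE 0.17, adjusted p = 0.00171). Both knockdown libraries were far above both controls. The block ratio also called it with SRSF3 knockdown in whole cells, at 1.56 (SE 0.23, adjusted p = 0.0513), with levels of 10.2% and 9.56%, and in the other 5 comparisons where it was tested its change was 0.02 to 0.32.

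*Srpk1* (ENSMUSG00000004865), which encodes a kinase that phosphorylates SR proteins, has a member of 138 bases at chr17:28592288-28592425 (minus strand). Its upstream bin had 17.4 and 19.5 scaled reads in the control and 70.42 and 70.45 with SRSF1 knockdown, while its downstream bin stayed between 310 and 337. The level of use went from 3.53% and 3.93% to 15.4% and 15.2%, a change of 1.98 (SE 0.18, adjusted p = 0.0105). In the other 6 comparisons where it was tested the change lay between -0.56 and 0.39. *Far1*, a fatty acyl-CoA reductase of the peroxisome, had 13.3 and 10.2 scaled reads against 48.0 and 42.3, a change of 2.03 (SE 0.25, adjusted p = 0.0312), and its level went from 1.502% and 1.24% to 6.76% and 5.20%. The groups did not overlap in either gene.

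*Prpsap1*, which encodes a protein associated with phosphoribosyl pyrophosphate synthetase, had 2 members called. In the member of 229 bases the level went from 3.51% and 3.43% to 13.3% and 9.33%, a change of 1.66 (SE 0.21, adjusted p = 0.0399). The member of 392 bases went from 4.25% and 7.11% to 15.6% and 16.8%, a change of 1.54 (SE 0.23, adjusted p = 0.0552). Its downstream bins were lower too, from 391 and 427 to 217 and 201 scaled reads in the first and from 443 and 499 to 268 and 261 in the second. Upstream bins were higher in each, and the members share the gene and are not separate evidence.

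Of the other named members whose longer form begins in the bin, *Bcam*, a cell adhesion molecule of the immunoglobulin family, reached the highest level. It went from 37.4% and 36.1% to 114% and 107%, a change of 1.56 (SE 0.15, adjusted p = 0.0105). *Piga*, which starts the synthesis of GPI anchors, went from 6.52% and 4.03% to 15.5% and 13.1%, and *Per3*, a circadian clock gene, from 4.53% and 4.98% to 11.96% and 9.33%. *Guk1*, guanylate kinase, went from 3.14% and 2.72% to 7.94% and 6.20%. *Nup85*, a scaffold protein of the nuclear pore, went from 6.31% and 5.48% to 12.6% and 10.9%, and *Hook1*, which links cargo to microtubule motors, from 8.72% and 9.47% to 19.6% and 16.9%. The changes of these 5 lay between 0.98 and 1.47 (adjusted p = 0.0366 to 0.0749 by limma). In none did a knockdown library reach into the range of the controls, which a pick by both tests favours.

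*Tial1* (ENSMUSG00000030846), which encodes the RNA-binding protein TIAR, was the only member called lower by both tests with SRSF1 knockdown in whole cells, and it is spliced at both sites. Its member of 309 coding bases lies at chr7:128446799-128447107 (minus strand). The upstream bin had 96.2 and 97.5 scaled reads in the control and 26.5 and 30.2 with knockdown, and the downstream bin 79.8 and 92.8, then 53.1 and 57.4. Its level went from 44.7% and 38.9% to 18.5% and 19.5%, a change of -1.11 (SE 0.16, adjusted p = 0.0474). In the other 6 knockdowns in whole cells the change was -0.26 to 0.08.

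*Enah*, which encodes an actin regulator of the Ena/VASP family, was named after its values were seen, as the other member spliced at both sites that both tests called with SRSF1 knockdown. Its member of 732 coding bases, at chr1:181921769-181922500 (minus strand), went from 35.0% and 30.1% to 56.2% and 57.0%. The change of the ratio was 0.80 (SE 0.11, adjusted p = 0.0440). With SRSF2 knockdown in whole cells its level was 56.9% and 47.1%, and bin usage alone called it, at 0.81 (adjusted p = 0.00107). All 4 knockdown libraries were above both controls.

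With SRSF3 knockdown in whole cells, 7 of the 8 members called by both tests were higher, and 5 of these 7 had at most 10 reads in each control library. *Foxk2*, a forkhead transcription factor, has a member of 43 bases at chr11:121298516-121298558 (mm10, plus strand), shown above. It had 2 and 3 reads in the control and 12 and 31 with knockdown, a level of 0.817% and 1.09% against 10.6% and 13.5%. Its control mean of 2.46 scaled reads was under the minimum of 5. It could therefore be tested only where a knockdown was high, as was the case for *Vars2* and *Pdcd6ip*, and for these 3 members only the values are given.

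*Vars2*, the mitochondrial valyl-tRNA synthetase, also had 2 and 3 reads in the control, against 23 and 30, and its level went from 4.01% and 7.30% to 50.5% and 37.2%. *Pdcd6ip*, which encodes the ESCRT-associated protein ALIX, had 2 and 3 reads against 20 and 26, and its level went from 0.833% and 0.907% to 6.34% and 6.29%. The other members called higher were *Pabpc1*, *Ncapg*, *Klhl12* and *Slc2a3*, which encode the cytoplasmic poly(A)-binding protein, a condensin subunit, an adaptor of the Cullin-3 ubiquitin ligase and a glucose transporter.

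*Pabpc1* went from 0.166% and 0.279% to 1.47% and 0.985%, and *Ncapg* from 1.12% and 1.01% to 7.02% and 4.29%. *Klhl12* went from 5.68% and 9.06% to 22.8% and 23.8%, and *Slc2a3* from 1.14% and 1.22% to 2.51% and 2.96%. Their changes were 2.32 (SE 0.34), 2.23 (SE 0.31), 1.64 (SE 0.25) and 1.18 (SE 0.16), with an adjusted p of 0.0429 to 0.0655. In each of them the knockdown libraries were above both controls, which a pick by both tests favours, and the level of use stayed at 23.8% or below.

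**Figure D4:**
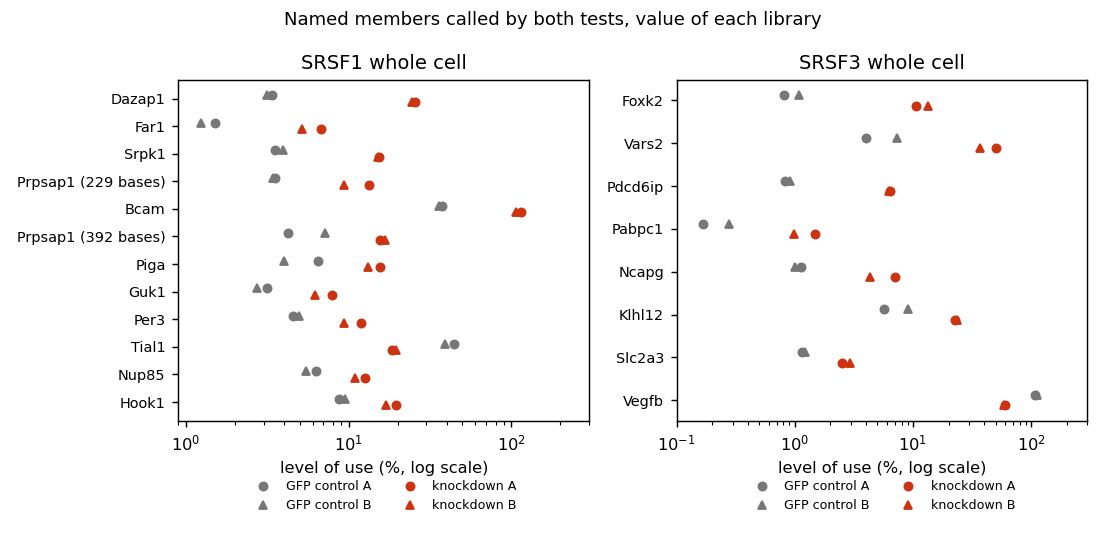
Level of use (horizontal axis, %, log scale) of the named members called by both tests with SRSF1 (left) and SRSF3 (right) knockdown in whole cells, 1 point for each library, circles for replicate A and triangles for B, grey for GFP control and red for knockdown. Only Tial1, from 44.7% and 38.9% to 18.5% and 19.5%, and Vegfb, from 109% and 111% to 60.4% and 59.1%, have their knockdown points to the left of the controls.

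*Vegfb* (ENSMUSG00000024962) was called lower by both tests with SRSF3 knockdown in whole cells and in the cytoplasm. The member is 101 coding bases at chr19:6985496-6985596 (mm10, minus strand), spliced at both sites. In whole cells the upstream bin had 287 and 372 scaled reads in the control and 150 and 201 with knockdown, and the downstream bin 315 and 400, then 297 and 407. Reads were thus lower in the upstream bin while those of the downstream bin overlapped between the groups. The level of use went from 109% and 111% to 60.4% and 59.1%, a change of -0.88 in the log2 ratio (SE 0.08, adjusted p = 0.00735), and bin usage gave -0.98 (adjusted p = 0.0591).

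In the cytoplasm the upstream bin of *Vegfb* had 753 and 992 scaled reads in the control and 455 and 532 with SRSF3 knockdown, against 838 and 1167, then 883 and 1065 downstream. The level went from 107% and 102% to 61.5% and 59.7%, a change of -0.78 (SE 0.06, adjusted p = 0.00192). In the 12 comparisons of the other 6 knockdowns the change was -0.21 to 0.07, and none was called. The lowest of these levels was 90.1%, with SRSF1 knockdown in the cytoplasm, so all 4 SRSF3 knockdown libraries lay below all the others.

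**Figure D5:**
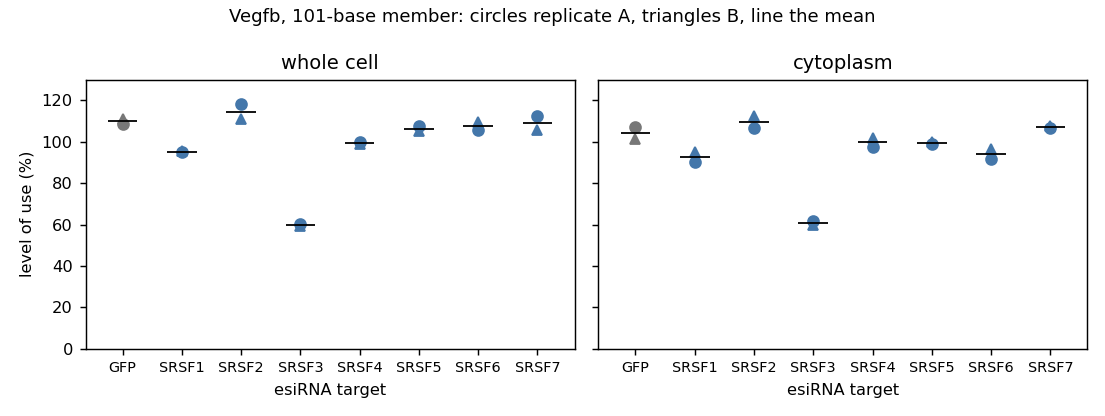
Level of use of the 101-base member of Vegfb (vertical axis, %) in each of the 32 libraries, by esiRNA target, in whole cells (left) and cytoplasm (right); circles are replicate A, triangles B, lines the mean of both. The 4 SRSF3 knockdown libraries lie between 59.1% and 61.5%, and the others at 90.1% or above.

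*Mbd6*, which encodes a protein of the methyl-CpG-binding domain family, was the other member called lower by both tests with SRSF3 knockdown in the cytoplasm. Its member of 74 coding bases lies at chr10:127283089-127283162 (minus strand) and is spliced at both sites. It had 16 and 23 reads in the control and 8 and 6 with knockdown, a level of 12.1% and 14.2% against 3.87% and 2.01%, and a change of -2.07 (SE 0.37, adjusted p = 0.0853). In SRSF2 knockdown of the cytoplasm its level was 3.95% and 3.79%, a change of -1.66 that was not called (adjusted p = 0.679). In all 7 knockdowns both cytoplasmic libraries were below both controls in *Mbd6*, with changes from -0.34 to -2.07, and all 7 comparisons share those 2 control libraries. With SRSF3 knockdown in whole cells the change was -0.60 (adjusted p = 0.459), with levels of 17.7% and 22.2% against 13.4% and 12.5%.

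*Prpf19*, which encodes a ubiquitin ligase of the spliceosome, has a member of 57 bases at chr19:10898926-10898982 (plus strand), spliced at both sites. With SRSF3 knockdown in the cytoplasm its level went from 22.7% and 21.9% to 12.4% and 14.9%, and the block ratio alone called it lower, at -0.70 (SE 0.12, adjusted p = 0.0853). With SRSF2 knockdown in the cytoplasm it stood at 43.0% and 35.8%, a change of 0.81 (SE 0.12) that was not called (adjusted p = 0.415). Both SRSF3 libraries lay below and both SRSF2 libraries above the controls.

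*Bcam* also had values on both sides of the control. With SRSF1 knockdown in the cytoplasm its level was 71.3% and 54.2% against 24.5% and 15.2%, a change of 1.66 (SE 0.23, adjusted p = 0.0647). With SRSF3 knockdown in the cytoplasm it was 4.76% and 3.49%, a change of -2.09 (SE 0.34, adjusted p = 0.0703). Both were called by the block ratio alone. With SRSF2 knockdown the change was 1.23 in whole cells (63.7% and 120%, adjusted p = 0.448) and 1.40 in the cytoplasm (75.1% and 36.2%, adjusted p = 0.898), not called, with no overlap of the groups. The comparisons within a fraction share its 2 control libraries.

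With SRSF3 knockdown in whole cells bin usage called 0.394% of all bins, 0.201% lower. Of the members spliced at both sites, at most 1070 of which were tested in a comparison, it called 5, all lower. Besides *Vegfb* these were *Pdlim5*, a scaffold protein of muscle and other cells, *Sik3*, a kinase related to AMPK, *Odf2*, a centriole protein, and *Erbb2ip*, a scaffold protein of epithelial cells. The level of *Pdlim5* went from 108% and 97.8% to 64.7% and 53.1%. That of *Sik3* went from 129% and 130% to 80.7% and 128%, and that of *Odf2* from 73.3% and 67.9% to 98.7% and 80.8%.

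These 4 were not called by the block ratio, and in *Odf2* and *Erbb2ip* a lower bin usage did not come with a lower level of use. The downstream bin of *Odf2* went from 673 and 771 to 237 and 354 scaled reads, and in *Erbb2ip* both bins had 3.37 to 16.02 scaled reads with knockdown, with levels that overlapped between the groups. The downstream bin was also lower in *Sik3*, from 273 and 285 to 108 and 123, and in *Pdlim5*, from 80.3 and 83.3 to 35.9 and 65.8. With SRSF7 knockdown in whole cells *Camta1*, a transcription factor, went from 41.8% and 36.3% to 8.40% and 13.9%, with a bin usage change of -1.78 (adjusted p = 0.00590). *Ank3*, which encodes ankyrin-G, went from 119% and 93.7% to 41.5% and 50.6%, with a bin usage change of -0.84 (adjusted p = 0.0113) and a block ratio change of -1.19 that was not called (adjusted p = 0.205). In both genes the knockdown libraries were below both controls.

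Where no member was called by both tests, those with the smallest p of the block ratio are given, at most 2 for each comparison, and none of them was called by it. With SRSF2 knockdown in whole cells these were *Adam17*, a membrane protease, at 5.87% and 6.52% against 18.01% and 14.2%, and *Irf3*, a transcription factor of the interferon response, at 9.91% and 10.4% against 24.5% and 23.5% (adjusted p = 0.273 and 0.285). With SRSF4 knockdown they were *Zfand1*, with 96.2% and 77.2% against 39.8% and 37.9%, and *B230208H17Rik*, with 5.40% and 6.22% against 10.4% and 11.9% (adjusted p = 0.996 for both). With SRSF5 they were *Dnajc7*, a co-chaperone, with 4.44% and 3.41% against 1.78% and 2.20%, and *Spag9*, a JNK scaffold protein, with 163% and 193% against 296% and 271% (adjusted p = 0.998 for both).

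With SRSF6 knockdown in whole cells *Mprip*, a regulator of myosin phosphatase, had 4.96% and 4.17% against 2.28% and 1.84%, and *Gsk3b*, a kinase of the Wnt pathway, had 165% and 193% against 112% and 104% (adjusted p = 0.976 for both). With SRSF7 knockdown *Nasp*, a histone chaperone, had 2.94% and 2.58% against 1.49% and 1.60%, beside *Ank3* above (adjusted p = 0.165 for *Nasp*), and bin usage alone called it, at -0.81 (adjusted p = 0.0241). In each of these members the 2 groups did not overlap, which a pick by the smallest p favours, so it adds no evidence of a change.

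In the cytoplasm the members with the smallest p with SRSF2 knockdown were *Mbd6* and *Prpf19*, described above. With SRSF4 *Park7*, which encodes DJ-1, stood at 67.5% and 63.8% against 51.8% and 50.7%. With SRSF5 they were a member of 21 bases of *Mrpl55*, at 31.7% and 32.4% against 21.9% and 23.6%, and *D4Ertd22e*, a member of 3 bases, at 58.8% and 62.6% against 44.4% and 44.9%. With SRSF6 *Smc4*, a condensin subunit, stood at 116% and 131% against 65.7% and 69.4%, and *Ctps*, CTP synthase, at 152% and 154% against 117% and 120%. With SRSF7 *Ctps* stood at 114% and 121% and *Taf11*, part of the general factor TFIID, at 18.6% and 15.0% against 8.42% and 10.0%. The adjusted p by limma was 0.415 for *Prpf19* and 0.671 to 0.944 for the others, and *Ctps* was set against the same 2 control libraries in both comparisons.

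Of the named members called by both tests with SRSF1 knockdown in whole cells, 5 were also measured in the cytoplasm, with changes of 0.61 to 1.79. These 5 were picked by their whole cell values, and no label says whether the fractions come from separate cultures. *Nup85* went from 2.86% and 2.62% to 8.58% and 7.67% in the cytoplasm, a change of 1.55 (SE 0.11, adjusted p = 0.000681), and *Guk1* from 1.54% and 0.757% to 4.14% and 3.61%, a change of 1.79 (SE 0.29, adjusted p = 0.0993). *Prpsap1* (392 bases) changed by 1.37 (adjusted p = 0.000217). *Piga*, with a change of 0.61 in the cytoplasm, overlapped its controls there and was not called by the block ratio (adjusted p = 0.918).

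The difference of the changes between the fractions was tested directly for each knockdown, with 8 libraries. No member was called by limma with any of the 7, and neither was any other block (0% of blocks in each); at an unadjusted p below 0.05 there were 69 to 88 members higher and 76 to 91 lower in the cytoplasm, among 3870 to 4017 tested. This does not show that the changes were equal.

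Members in genes of splicing and export were few and mostly passed no test; their lists were chosen with earlier results of these data known. Among 30 genes of SR and SR-related proteins 14 held 27 members, and 273 tests over the 14 comparisons gave 1 call, *Srpk1* with SRSF1 knockdown, higher by both tests. Among 31 genes of 3′ splice site recognition and the second step 11 held 19 members, and 147 tests gave 1 call by bin usage, lower, and none by the block ratio. That was a member of 555 bases of *Sf1*, the branch point binding protein, with SRSF3 knockdown in whole cells at -0.77 (adjusted p = 0.0362). Among 50 genes of hnRNPs and other splicing regulators 16 held 29 members, and 286 tests gave 1 call, *Tial1*, lower by both tests.

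mRNA export factors (7 of 21 genes with 14 members) and pluripotency and chromatin genes (20 of 29 genes with 36 members) had no call by either test, limma on the block ratio or diffSplice. At an unadjusted p below 0.05 the block ratio gave 9.52% of tests in the SR list, 5.44% in the 3′ splice site list, 6.99% in the hnRNP list, 8.41% in the export list and 5.57% in the pluripotency list, against 5.01% over all members. Called were 0.131% of all tests on members by bin usage and 0.0802% by the block ratio, and 1 call is 0.366% of the tests in the SR list and 0.350% in the hnRNP list. At an unadjusted p below 0.05 bin usage gave 2.93%, 3.40%, 4.55%, 6.42% and 1.85%, against 3.51%. The medians of the block ratio over the 5 lists lay between -0.01 and 0.02.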

How the data were processed

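The exon bin tables of the 14 comparisons of a knockdown with the GFP control were used, 1 for each of 7 knockdowns in 2 fractions. The authors trimmed single-end reads of 75 or 85 bases (cutadapt, whose version the sources used here do not give) after CASAVA 1.8.2, aligned them with TopHat2 (2.0.9 and 2.0.10 in the submitters' processing notes, with Bowtie2 2.1.0), and counted reads per exon bin of mm10 for DEXSeq. The deposited signal values are read counts divided by 1 factor for each library, and 1 deposited column, with a factor of 1, holds plain counts. Dividing by the step between values gave whole reads, to within 0.01, for 100% of values in every library. The sources used here do not give whether counting used the strand, so reads of overlapping genes on opposite strands cannot be told apart. Gene tables, FPKM tables, Cuffdiff tables and MISO event tables were not used here, nor were the columns of the authors' own fold changes and p-values. What is said of depth covers counting error only.

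Replicates A and B are biological replicates by the study's methods. Bin usage was tested with limma 3.58.1 (diffSplice, vooma weights) on log2(value + 1), with R 4.3.3, and the block ratio with limma on log2((upstream + 1)/(downstream + 1)) over all internal blocks of 2 bins, with a variance trend on the lower bin. Fold changes are on that scale, which understates changes of low bins. A mean of at least 5 was required, and p-values were adjusted by Benjamini-Hochberg over everything tested, with a threshold of 0.1. Alternatives were TMM scaling, edgeR 4.0.16 on recovered reads (bin usage), all 16 libraries of a fraction, a minimum of 20 or none, a pseudocount of 4, a replicate block and each library left out. Tests were checked on simulated data. The members, classes and lists were chosen with earlier results of these data known. Named members were those called by both tests in 1 direction, at most 12 in a comparison by size of the block ratio change, otherwise the 2 with the smallest p, members of the gene lists called by both tests, and the 6 largest called changes between control fractions. Of the members this rule names, 2 are not reported here. Sequences come from NCBIM37 (GENCODE vM1 transcripts matched by identifier and exon lengths); no coordinate was converted between builds.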

Additional observations from a re-analysis of the deposited data

How the results depend on the processing

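The minimum of 5 scaled reads left 40.2% to 42.3% of the members to be tested in whole cells and 25.1% to 28.0% in the cytoplasm. The others were left out by this minimum, and the main counts say nothing of them. None of the 24 named calls by both tests turned its direction under any setting. In bin usage edgeR lost 3 of them, and leaving out a library lost 6 to 14. In the block ratio a pseudocount of 4 lost 2, all 16 libraries of the fraction 1, a minimum of 20 lost 1 of 20, no filter all 24, and leaving out a library 22 to 24. TMM scaling moved no count past 1.5 times.

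Counts of called members that moved by more than 1.5 times follow. The cause of these moves was not tested. By bin usage, all 16 libraries gave 9 for SRSF2 and 42 for SRSF3 in whole cells, and 2 for SRSF2, 2 for SRSF3 and 0 for SRSF6 in the cytoplasm. edgeR gave 3 for SRSF2 in whole cells and 1 for SRSF3 and 0 for SRSF6 in the cytoplasm. A minimum of 20 gave 2 for SRSF2 and 14 for SRSF3 in whole cells, and 0 for SRSF6 in the cytoplasm. No filter gave 9 for SRSF2, 41 for SRSF3 and 6 for SRSF7 in whole cells, and 8 for SRSF1, 19 for SRSF3 and 0 for SRSF6 in the cytoplasm. A pseudocount of 4 gave 5 for SRSF7 in whole cells and 5 for SRSF1 in the cytoplasm. By the block ratio, all 16 libraries gave 4 for SRSF2, 27 for SRSF3 and 1 for SRSF7 in whole cells, a minimum of 20 or a pseudocount of 4 gave 1 for SRSF3 in the cytoplasm, and no filter gave 0 for SRSF1 and SRSF3 in both fractions and 1087 between the control fractions. The median level of use in whole cells was 18.6% for reads of 85 bases, and 23.5% and 5.08% in the 2 fractions with reads per base.

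Replicate letters named no shared culture or day, and the A minus B differences of 2 groups correlated by Spearman's rho of 0.0629 to 0.170 in whole cells (median 0.0997, 2762 members, 28 pairs of groups) and -0.122 to 0.117 in the cytoplasm (median 0.0341, 1767 members). With a replicate block bin usage called 12 members for SRSF2, 1 for SRSF6 and 8 for SRSF7 in whole cells, and 13 for SRSF1, 31 for SRSF3 and 3 for SRSF7 in the cytoplasm. The block ratio with a replicate block called 75 for SRSF1, 112 for SRSF3 and 19 for SRSF7 in whole cells, and 8 for SRSF1, 3 for SRSF2, 24 for SRSF3, 2 for SRSF5, 1 for SRSF6 and 18 for SRSF7 in the cytoplasm. The crossed pairing for SRSF2 in the cytoplasm, added after the data were seen, called 0.

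Without 1 replicate, bin usage gave 6 to 19 for SRSF1, 0 to 5 for SRSF2, 5 to 47 for SRSF3 and 0 to 5 for SRSF7 in whole cells, and in the cytoplasm 1 to 8 for SRSF1, 0 to 88 for SRSF2, 1 to 11 for SRSF3, 0 to 2 for SRSF4, 0 to 1 for SRSF6 and 0 to 1 for SRSF7. The block ratio gave 0 to 1 for SRSF1 and 0 to 1 for SRSF3 in whole cells, 0 to 2 for SRSF1, 0 to 59 for SRSF2 and 0 to 3 for SRSF3 in the cytoplasm, 0 to 26 for SRSF2 and 0 to 1 for SRSF3 in the test between fractions, and 0 to 758 between the control fractions. The highest values for SRSF2 in the cytoplasm came without knockdown B. In these fits the lone sample of a group is assumed to vary like the other group.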
